A study of Trichosurus vulpecula with 6 samples.

Results

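The data set was examined for 10 genes that mark cartilage, COL2A1, ACAN, SOX9, COL9A1, COL9A2, COL9A3, COL11A1, COL11A2, HAPLN1 and CHAD, out of 18166 genes with an assembled transcript. They were chosen by name as products of chondrocytes, with their TPM in these libraries already known, so their levels and the order of the libraries are given as a description without a test. All 10 symbols were found in the RefSeq gene table of the possum assembly mTriVul1.pri, and all 10 genes had at least 1 assembled transcript in each of the 6 libraries.

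RNA-sequencing was done on punches from the ears of adult female brushtail possums (Trichosurus vulpecula), a marsupial with a grey and a black coat form. There were 3 grey and 3 black animals, with 1 library each, named here grey 1 to grey 3 and black 1 to black 3 as in the labels. The libraries were poly(A)-enriched and strand-specific, and the study compared them for the basis of coat colour. The labels give the tissue as skin and do not say how much cartilage a punch held.

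The mammalian pinna is a plate of elastic cartilage between 2 sheets of skin, so a punch through it can carry chondrocytes beside epidermis and dermis. Chondrocytes surround themselves with fibrils of type II collagen, on which type IX and type XI collagen sit, and with a gel of the proteoglycan aggrecan bound to hyaluronan by link protein. The transcription factor SOX9 switches on many of these genes. Dermal fibroblasts make a different matrix, of type I collagen, decorin and elastic fibres, although elastin also occurs in ear cartilage.

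The level of a gene is the sum of the TPM (a measure of transcript abundance that allows for length and depth) of its transcripts. Depth, taken as aligned bases, ran from 4.17 gigabases in grey 1 to 10.2 in grey 3, and 80.6% of TPM in grey 1 and 86.4% to 88.5% in the other libraries fell in RefSeq genes. Skeletal muscle genes, 8 of 10 listed matched by symbol, were high in black 1 (4449 TPM in sum against 74.8 to 131 TPM in the others). In a bulk punch, fewer chondrocytes and less RNA per chondrocyte cannot be told apart.

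The fibril collagen came first among the genes examined. COL2A1 (chromosome 5, 277905446 to 277951770, plus strand), the chain of type II collagen, was at 101, 31.7 and 6.90 TPM in grey 1, 2 and 3 and at 12.3, 15.8 and 57.7 TPM in black 1, 2 and 3. Grey 1 and black 3 were high, grey 3 was lowest, and the colours overlapped. The highest level was 14.6 times the lowest, the widest range of the 10 genes, and rested on about 1497 to 9053 reads per library.

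Type XI collagen sets the width of the type II fibril. Its COL11A2 chain (chromosome 7, 270152799 to 270188815, minus strand) was at 64.1, 30.0 and 17.6 TPM in grey 1 to 3 and at 30.1, 31.95 and 27.6 TPM in black 1 to 3. COL11A1 (chromosome 7, 68899907 to 69180656, plus strand) was the lowest of the 10 genes in mean level, at 17.9, 4.86 and 5.76 TPM in the grey animals and 5.73, 7.49 and 6.42 TPM in the black. Both chains stood above the rest in grey 1, and COL11A1 differed by 1.54 times among the other 5 libraries.

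COL11A1 was assembled in pieces in grey 3 and black 1, where 0 transcripts ran from end to end and the longest held 34 and 27 exons against up to 67 elsewhere. A sum of TPM over such pieces counts a gene more than once. With 1 fixed exon length for the gene, its level was 25.5, 6.005 and 3.48 in the grey and 2.61, 8.36 and 9.07 in the black libraries, in the units of TPM. On that scale grey 3 and black 1 were the lowest, and grey 1 was still the highest.

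The chains of type IX collagen, which decorates the fibril surface, were at unequal levels. COL9A2 (chromosome 2, 72079876 to 72107701, plus strand) was at 228, 87.1 and 79.4 TPM in grey 1 to 3 and at 67.2, 88.1 and 91.9 TPM in black 1 to 3. COL9A3 (chromosome 3, 181377558 to 181434571, minus strand) was at 35.8, 20.7 and 6.01 TPM in the grey animals and 12.5, 32.5 and 26.7 TPM in the black. COL9A1 (chromosome 7, 208004167 to 208126761, plus strand) was at 28.7, 14.1 and 3.33 TPM in the grey animals and 7.20, 12.1 and 14.9 TPM in the black. COL9A1 and COL9A3 were lowest in grey 3, whereas COL9A2 there was close to its level in grey 2 and black 1 to 3.

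A type IX collagen molecule holds 1 chain from each of these genes. COL9A2 made up 66.4% to 89.5% of their summed TPM, COL9A3 6.77% to 24.5% and COL9A1 3.76% to 11.6%. The share of COL9A2 was highest in grey 3, where its TPM was 23.8 times that of COL9A1, against 6.17 to 9.33 times in the other 5 libraries. In grey 3 the leading COL9A1 transcript was a piece of 5 exons, and with a fixed exon length COL9A1 was at 1.87 there in the units of TPM and the ratio was 68.1, against 7.74 to 12.6 in the others. The order COL9A2 above COL9A3 above COL9A1 held in each of the 6 libraries.

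Aggrecan and its link protein differed in range. ACAN (chromosome 8, 124338076 to 124423279, minus strand), which encodes aggrecan, was at 257, 136 and 192 TPM in grey 1 to 3 and at 124, 174 and 114 TPM in black 1 to 3. Its highest level was 2.25 times its lowest, the narrowest range of the 10 genes, and grey 3 was the library next to grey 1. HAPLN1 (chromosome 1, 451170514 to 451208605, minus strand), the link protein, was at 71.3, 25.5 and 17.4 TPM in the grey animals and 26.8, 38.9 and 27.2 TPM in the black. The highest level of HAPLN1 was 4.10 times its lowest. TPM of ACAN was 3.60 to 5.33 times that of HAPLN1 in 5 libraries and 11.0 times in grey 3.

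CHAD (chromosome 4, 180508612 to 180512682, plus strand), chondroadherin, a leucine-rich protein that binds chondrocytes to type II collagen, had the highest mean level. It was at 445, 138 and 155 TPM in grey 1 to 3 and at 123, 275 and 168 TPM in black 1 to 3. SOX9 (chromosome 4, 203908680 to 203914254, minus strand), also made by hair follicle cells, was at 52.6, 17.1 and 35.9 TPM in the grey animals and 19.2, 27.3 and 23.2 TPM in the black. As with ACAN, SOX9 was second highest in grey 3.

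**Figure D1:**
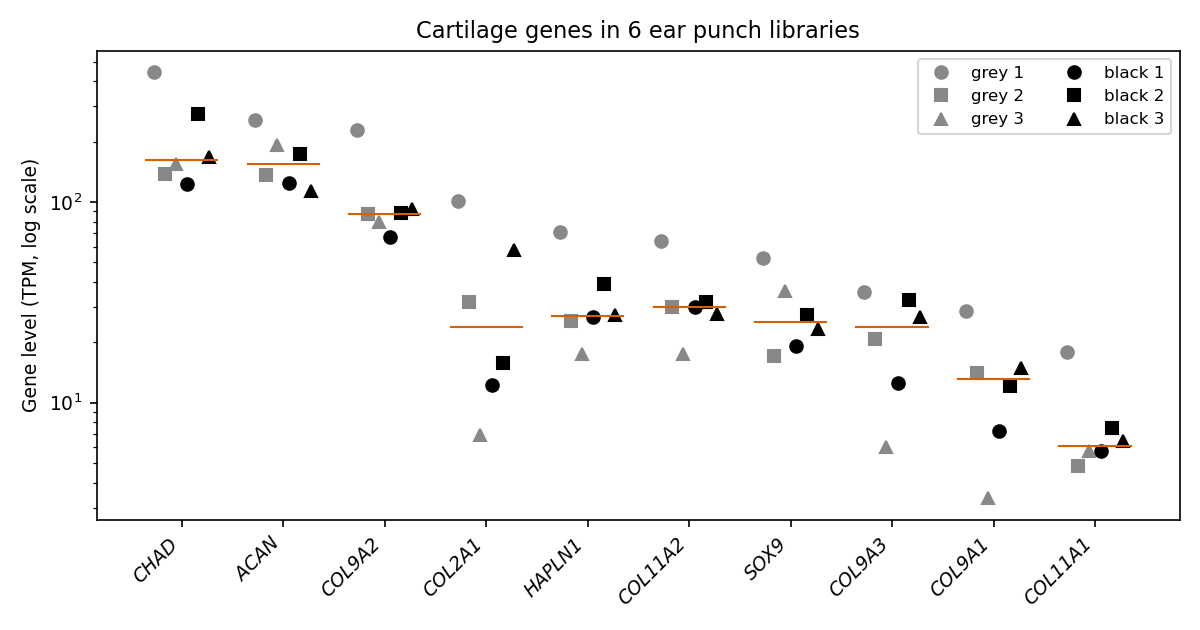
Level of each of the 10 cartilage genes in TPM on a log scale, 1 point per library (grey symbols for grey and black symbols for black possums, shape for the replicate number), with the genes ordered by mean level and the median of the 6 libraries as a line. Grey 1 is the highest point of every gene, and grey 3 is the lowest, with black 1 next above it, for COL2A1, COL9A3 and COL9A1.

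By mean over the 6 libraries the order was CHAD (217 TPM), ACAN (166), COL9A2 (107), COL2A1 (37.5), HAPLN1 (34.5), COL11A2 (33.6), SOX9 (29.2), COL9A3 (22.4), COL9A1 (13.4) and COL11A1 (8.02). ACAN was above COL9A2, COL9A2 above COL2A1 and COL9A3 above COL9A1 in 6 of 6 libraries. COL2A1 and HAPLN1 changed places between libraries (COL2A1 was higher in 3 of 6), as did SOX9 and COL9A3 (3 of 6), HAPLN1 and COL11A2 (HAPLN1 higher in 2 of 6) and CHAD and ACAN (CHAD higher in 4 of 6). These neighbours were not separated by more than their spread.

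The 10 genes together took 1301, 505 and 520 TPM in grey 1 to 3 and 428, 703 and 557 TPM in black 1 to 3, or 0.0428% to 0.130% of TPM. Each of the 10 was highest in grey 1, as were 16.7% of all 15636 genes tested. Of the 10, 8 were there at more than 2 times the median of the other 5 libraries, against 7.32% of genes tested. In grey 3, 5 of the 10 were at their lowest (COL2A1, COL9A1, COL9A3, COL11A2 and HAPLN1), against 23.6% of genes tested. The choice of genes was made with these levels known, so the counts are a description of the libraries.

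Grey 1 was also the shallowest library. The log2 ratio of coverage at the 5′ to that at the 3′ end of long transcripts had its most negative median there, −0.52, against −0.43 to −0.35 in the other libraries. The median gene of grey 1 lay at −0.09 on the log2 scale from its mean over all libraries. Scaling each library to the median gene thus raised the levels of grey 1. With a fixed exon length for each gene, and with multi-exon transcripts only, 10 of the 10 genes were again highest in grey 1 and 5 of the 10 lowest in grey 3. The part of depth and coverage in the levels of grey 1 was not tested beyond these values.

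Among the other 5 libraries the genes fell into a wide and a narrow set by range, a split made after the values were seen. COL2A1 (8.36 times from lowest to highest), COL9A3 (5.41 times) and COL9A1 (4.45 times) varied by more than 4 times. The other 7 genes varied by 1.37 times (COL9A2) to 2.24 times (CHAD). With a fixed exon length COL11A1, at 1.54 times in the summed TPM, varied by 3.48 times, and COL9A1 by 10.05 times. The library next to grey 1 was black 2 for 5 genes, black 3 for COL2A1, COL9A1 and COL9A2, and grey 3 for ACAN and SOX9.

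COL2A1 and ACAN, the main fibril and the main proteoglycan of cartilage, were therefore at different ratios in different punches. TPM of COL2A1 per TPM of ACAN was 0.393, 0.233 and 0.0360 in grey 1 to 3 and 0.0991, 0.0904 and 0.506 in black 1 to 3. Black 3 was highest and grey 3 lowest, 14.1 times apart (14.8 times with a fixed exon length). COL2A1 per SOX9 ran in a similar way, from 0.192 in grey 3 to 2.48 in black 3.

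**Figure D2:**
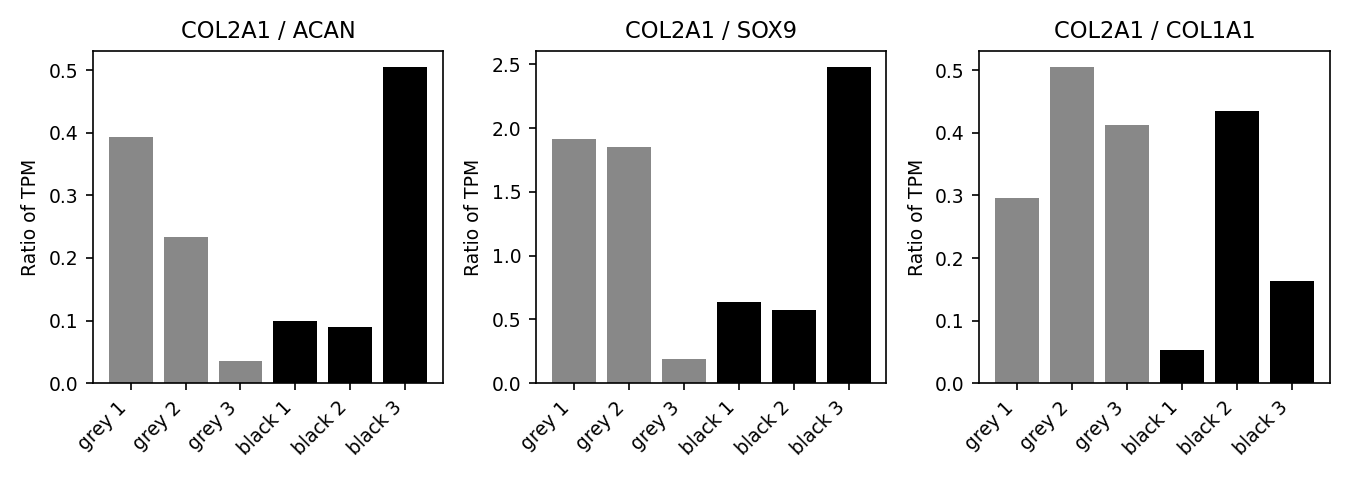
TPM of COL2A1 divided by that of ACAN, SOX9 and COL1A1, 1 bar per library from 0 (grey bars for grey, black bars for black possums). COL2A1 per ACAN and per SOX9 is highest in black 3 and lowest in grey 3, while COL2A1 per COL1A1 is lowest in black 1.

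The second question was how cartilage genes stood to the matrix of the dermis. COL1A1, the main chain of type I collagen, was at 340, 62.7 and 16.8 TPM in grey 1 to 3 and at 229, 36.2 and 354 TPM in black 1 to 3. ELN, elastin, was at 1008, 228 and 47.1 TPM in the grey animals and 311, 186 and 291 TPM in the black. DCN, the proteoglycan decorin, was at 2236, 1641 and 720 TPM in the grey animals and 1943, 1569 and 1188 TPM in the black. All 3 were lowest in grey 3, like COL2A1 and unlike ACAN.

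Across the 6 libraries, on log2(TPM + 1), COL2A1 had a Pearson r of 0.75 with COL1A1 (exact 2-sided permutation p = 0.106, Spearman rho 0.77, p = 0.103), 0.54 with DCN (p = 0.271, rho 0.49, p = 0.356) and 0.84 with ELN (p = 0.0278, rho 0.66, p = 0.175). Adjusted over these 3 relations, the p of r was 0.158, 0.271 and 0.0833, and that of rho 0.263, 0.356 and 0.263. None passed 0.05 after adjustment. Without grey 1 and grey 3, the libraries farthest from the median of COL2A1, r over the other 4 was 0.38 with COL1A1, −0.87 with DCN and 0.18 with ELN. The relations over 6 libraries thus rested on that pair, although leaving out the extremes of COL2A1 also narrows its range and leaves few points.

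COL1A1 left the order of COL2A1 chiefly in black 1, the library with muscle genes, where COL2A1 per COL1A1 was 0.0538 against 0.163 to 0.506 in the others. Without black 1, r of COL2A1 with COL1A1 was 0.96 (exact permutation p = 0.0250 before adjustment, n = 5). Black 1 was named here for its departure, so this p cannot serve as a test of the relation. Without any 1 of the other libraries r was 0.57 to 0.78 (exact permutation p = 0.150 to 0.300). For COL2A1 with ELN, r was 0.68 (exact permutation p = 0.225) without grey 1 and 0.73 (exact permutation p = 0.125) without grey 3.

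ACAN, a relation added after the data were seen, had an r of −0.20 with COL1A1, 0.09 with DCN and 0.16 with ELN over the 6 libraries (exact permutation p = 0.710, 0.854 and 0.817, and 0.854 for each after adjustment over 6 relations). Spearman rho was −0.43, 0.20 and −0.09 (exact permutation p = 0.419, 0.714 and 0.919). Without grey 1 and black 3, the libraries farthest from the median of ACAN, r over the other 4 was −0.94, −0.82 and −0.86. Without grey 1 alone, r was −0.96 with COL1A1, −0.54 with DCN and −0.85 with ELN. The sign with DCN and ELN thus turned without grey 1, which was high in ACAN and in all 3 dermal genes, and that with DCN was also below 0 (−0.05) without black 3.

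**Figure D3:**
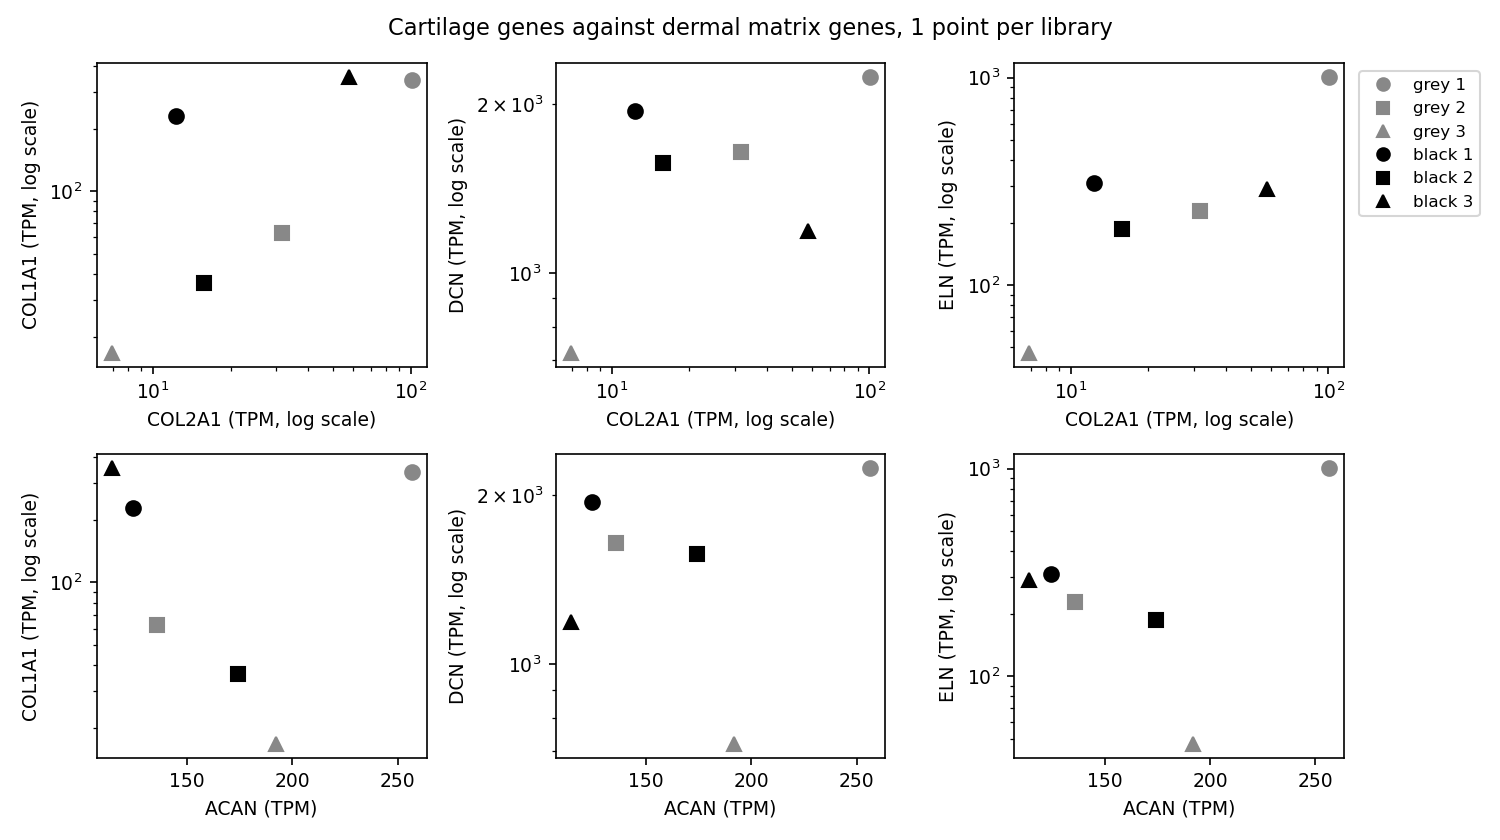
Levels of COL1A1, DCN and ELN (TPM, log scale) against COL2A1 (upper row, TPM, log scale) and ACAN (lower row, TPM, linear scale), 1 point per library. In the upper row grey 3 lies at the lower left and grey 1 at the right in each panel, whereas in the lower row grey 3 is second from the right and lowest in the dermal gene.

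Of 25 dermal matrix genes listed, COL3A1, COL6A2 and BGN were not matched by symbol and so were not measured. The other 22 had a transcript and were tested. Of these 22, 18 were lowest in grey 3 and 8 highest in grey 1, against 23.6% and 16.7% of all genes tested. Their summed TPM was 9203, 5096 and 2717 in grey 1 to 3 and 6169, 4974 and 6952 in black 1 to 3. The highest of them were SPARC, a collagen-binding glycoprotein (2828, 1255 and 937 TPM in the grey and 1745, 1205 and 2023 TPM in the black), DCN, and POSTN, periostin (654, 518 and 225 TPM in the grey and 507, 412 and 953 TPM in the black). In grey 3 the cartilage genes ran from low to high, by summed TPM over the median of the other libraries. COL2A1, COL9A1 and COL9A3 were at 0.218 to 0.236 times that median, COL11A2 at 0.583 and HAPLN1 at 0.639. COL11A1, COL9A2 and CHAD were at 0.898 to 0.928 times, ACAN at 1.41 and SOX9 at 1.54.

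Genes that fold, hydroxylate and trim collagens were lowest in grey 3 in 10 of 14 tested, against 23.6% of all genes tested. SERPINH1, the collagen chaperone of the endoplasmic reticulum, was at 333, 134 and 40.3 TPM in grey 1 to 3 and at 107, 166 and 430 TPM in black 1 to 3. Like COL2A1 and COL1A1 it was high in grey 1 and black 3 and lowest in grey 3. PPIB, a prolyl isomerase, ran from 331 to 483 TPM, and P4HB, a subunit of prolyl hydroxylase, from 90.9 to 161 TPM, neither of them lowest in grey 3.

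Of 12 elastic fibre genes listed, 11 were tested, 7 of them highest in grey 1 and 8 lowest in grey 3. The shares of all genes tested were 16.7% and 23.6%. ELN, FBN1, MFAP4 and MFAP5 are also among the dermal matrix genes, so the counts of these lists overlap. Besides ELN the highest were MFAP4, a microfibril protein (106 to 234 TPM), and LTBP4, which anchors latent TGF-beta (45.6 to 99.3 TPM). Of 17 genes that make sulphated glycosaminoglycan chains such as those of aggrecan, 16 were tested. Of these 9 were highest in grey 1 and 2 lowest in grey 3. The highest were PAPSS1 and PAPSS2, which make the sulphate donor (71.1 to 123 and 24.0 to 43.7 TPM), and CSGALNACT2, which starts chondroitin chains (27.2 to 51.1 TPM). Their summed TPM varied little, from 299 in black 1 to 382 in grey 1.

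Other cartilage genes gave a check of the label. Of 26 listed, COMP, CILP, PRELP and CHADL were not matched by symbol and so were not measured. The other 22 had a transcript and 19 were tested. Of these, 12 were highest in grey 1 (63.2%, against 16.7% of all genes tested). Lowest in grey 3 were 5 (26.3%), which is near the 23.6% of all genes tested. The highest was CYTL1, a secreted protein of chondrocytes, at 624, 136 and 429 TPM in grey 1 to 3 and at 300, 602 and 303 TPM in black 1 to 3. WWP2, a ubiquitin ligase whose gene carries a microRNA of cartilage, was at 261, 175 and 186 TPM in the grey animals and 88.2, 207 and 103 TPM in the black. FMOD, fibromodulin, also made in tendon, was at 434, 104 and 105 TPM in the grey animals and 136, 142 and 81.6 TPM in the black. Each of the 3 was highest in grey 1, and CYTL1 in black 2 was close to that level.

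Some cartilage genes were near 0, as seen after their values were known. MATN1, a matrilin of cartilage, was at 0 to 1.42 TPM, MATN3 at 0 to 1.15 TPM and UCMA at 0 to 1.25 TPM. MATN1 had no transcript in grey 3 and black 3, MATN3 none in black 1 and black 3, and UCMA none in black 3. MATN4, another matrilin, was higher, at 2.37 to 13.6 TPM, with grey 1 highest. CNMD, chondromodulin, was at 98.2, 29.8 and 32.1 TPM in the grey animals and 24.4, 41.5 and 38.2 TPM in the black, again with grey 1 on top. Unlike MATN1, MATN3 and UCMA, the genes COL2A1, ACAN and HAPLN1 were assembled in all 6 punches.

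Genes of hypertrophic cartilage and bone were found in part. Of 11 listed, 6 had a transcript and 5 were tested, of which 0 were highest in grey 1, against 16.7% of all genes tested. SP7, IHH and DMP1 had no transcript in any library, and IBSP and BGLAP were not matched by symbol. ALPL, alkaline phosphatase, was at 12.3 to 23.4 TPM. SPP1, osteopontin, was at 55.4 TPM in black 3 and at 0.72 to 3.66 TPM in the other libraries. COL10A1, type X collagen, also listed among the other cartilage genes, was at 8.42 TPM in black 3 and at 1.51 to 3.72 TPM elsewhere. The 6 macrophage genes, a cell type that also makes osteopontin, summed to 523 TPM in black 3 and to 254 to 315 TPM in the others, and their part in this was not tested.

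Some markers of other cells were also highest in grey 1, as were 16.7% of all genes tested. Hair follicle genes, 7 tested of 10 listed, were highest in grey 1 in 6 of 7, with sums of 57.6 to 83.4 TPM in the grey and 46.0 to 60.3 TPM in the black. The highest were DLX3, nearly level at 19.1 to 22.6 TPM, and MSX2 (5.09 to 17.9 TPM, highest in grey 1). FOXN1 (6.01 to 14.1 TPM) was highest in grey 3 and at 6.79 TPM in grey 1. Schwann cell genes, 7 of 7 tested, were highest in grey 1 in 4, led by S100B, which chondrocytes also make, at 448, 153 and 101 TPM in the grey animals and 176, 315 and 149 TPM in the black. PMP22, a protein of myelin, was at 50.5 to 110 TPM and lowest in grey 3. Keratinocyte genes, of which 3 of 10 were matched by symbol, summed to 993 TPM in grey 1 and to 1484 to 1694 TPM in the others. DSG1, a desmosome cadherin, gave 941 TPM of the sum in grey 1. The part of these cell types in the levels of the 10 genes was not tested.

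The remaining marker lists were less tied to grey 1. Of 4 adipocyte genes tested 1 was highest there, with sums of 35.7 TPM in black 3 to 88.3 TPM in grey 3. The 5 endothelial genes, 2 of them highest in grey 1, summed to 141 TPM in grey 3 and to 220 TPM in grey 2. Of 8 muscle genes and of 6 macrophage genes, 0 were highest in grey 1. The share of all genes tested that were highest in grey 1 was 16.7%.

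Black and grey punches were then compared with limma on log2(TPM + 1) over the 15636 genes whose mean reached 1 TPM. Of the 10 cartilage genes 0 were called at an adjusted p of 0.05, against 3 of all genes tested (0.0192%). An unadjusted p under 0.05 was found for 0 of the 10 and for 361 of the 15636 genes tested. The colours failed to overlap for 0 of the 10 and for 6.36% of genes tested. For 10 genes a count of 0 is close to each of these shares. The smallest unadjusted p, that of ACAN, was 0.131, and the limma adjusted p was 1.00 for each gene.

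The differences, black minus grey, had wide intervals. ACAN differed by −0.48 (SE 0.28, 95% interval −1.14 to 0.18) and COL2A1 by −0.34 (SE 0.97, 95% interval −2.65 to 1.98) on the log2 scale. COL9A2 differed by −0.51 (SE 0.41), SOX9 by −0.46 (SE 0.39), COL11A1 by −0.27 (SE 0.45) and CHAD by −0.25 (SE 0.50). COL11A2 (−0.12), COL9A1 (−0.07) and HAPLN1 (−0.06) were nearer to 0, and COL9A3 was the 1 gene with a higher mean in black (0.39, SE 0.64).

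The median difference of the 10 genes was −0.26, against 0.04 over all genes tested, and it was 0.32 without grey 1. Without that library the differences of COL2A1 (0.55), COL9A1 (0.56), COL11A1 (0.25), COL11A2 (0.36), HAPLN1 (0.51) and CHAD (0.28) were above 0. The median SD within a colour was 0.71 on the log2 scale for the 10 genes and 0.32 for all genes tested. Dermal matrix genes had a median difference of 0.22 and the other cartilage genes one of −0.11, and 0 of either list were called. The dermal median was −0.15 without grey 3 and 0.60 without grey 1, and that of the other cartilage genes was 0.19 without grey 1 and 0.08 with a fixed exon length.

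**Figure D4:**
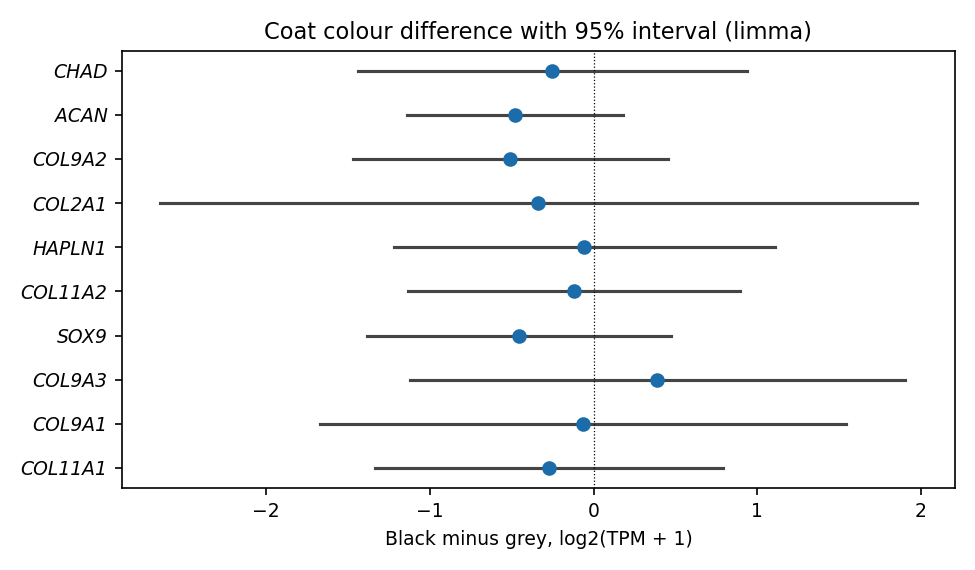
Difference of black minus grey possums in log2(TPM + 1) for each of the 10 cartilage genes (points, limma estimate from 3 grey and 3 black libraries) with its 95% interval (lines). Each interval spans 0, and that of COL2A1 is the widest, from −2.65 to 1.98.

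In no other list was a gene called at an adjusted p of 0.05. MIA, a small secreted protein of chondrocytes and melanoma cells named after its values were seen, had the only unadjusted limma p under 0.05 among the other cartilage genes (limma adjusted p = 1.00). It was at 130, 95.8 and 17.7 TPM in grey 1 to 3 and at 5.13, 24.0 and 8.21 TPM in black 1 to 3. Grey 1 and grey 2 were high, and grey 3 lay within the range of the black libraries.

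The assembled structures were much the same from animal to animal. The leading transcript had the same intron chain in 6 of 6 libraries for COL2A1 (51 exons), ACAN (17), SOX9 (3), COL9A2 (32), COL9A3 (32), HAPLN1 (5) and CHAD (4). It was shared by 4 libraries for COL9A1, by 3 for COL11A1 and by 2 for COL11A2. The levels of the last 2 were thus sums over transcripts that were cut differently between libraries.

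COL2A1 was assembled in 2 parts in each library. The chain of 51 exons began at position 277912075 of chromosome 5, downstream of the RefSeq start, and a separate short transcript covered that start. The short transcript had 0.104 to 0.227 times the coverage of the chain and took 9.46% to 18.5% of the TPM of the gene. A gap of 4974 to 6587 bases lay between them. The chain alone was at 88.4, 27.2 and 5.87 TPM in grey 1 to 3 and at 10.02, 14.2 and 52.2 TPM in black 1 to 3, the same order of libraries as the sum.

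COL9A1 is known to have a start upstream, used in cartilage for a chain with a large globular N-terminal domain, and a start inside the gene that gives a shorter chain. In these libraries the main transcripts began at an internal first exon that ended at position 208033949 of chromosome 7 and started 29.5 to 29.6 kb downstream of the RefSeq start. Coverage of that exon was 33.5, 26.7 and 6.85 reads per base in grey 1 to 3 and 14.6, 23.2 and 30.3 in black 1 to 3. The next exon was higher, at 119, 126 and 10.1 in grey 1 to 3 and 60.7, 98.1 and 117 in black 1 to 3. Exons upstream of it were assembled in 4 of 6 libraries, at a mean coverage of 1.13 to 1.73, and transcripts that started there held 0% to 7.92% of the TPM of the gene. Which protein either start encodes was not analysed here, and exons in the files with too few reads for an assembly would not be seen. Which cells of the punch made the transcripts from the internal start was not tested, which limits COL9A1 as a measure of cartilage.

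**Figure D5:**
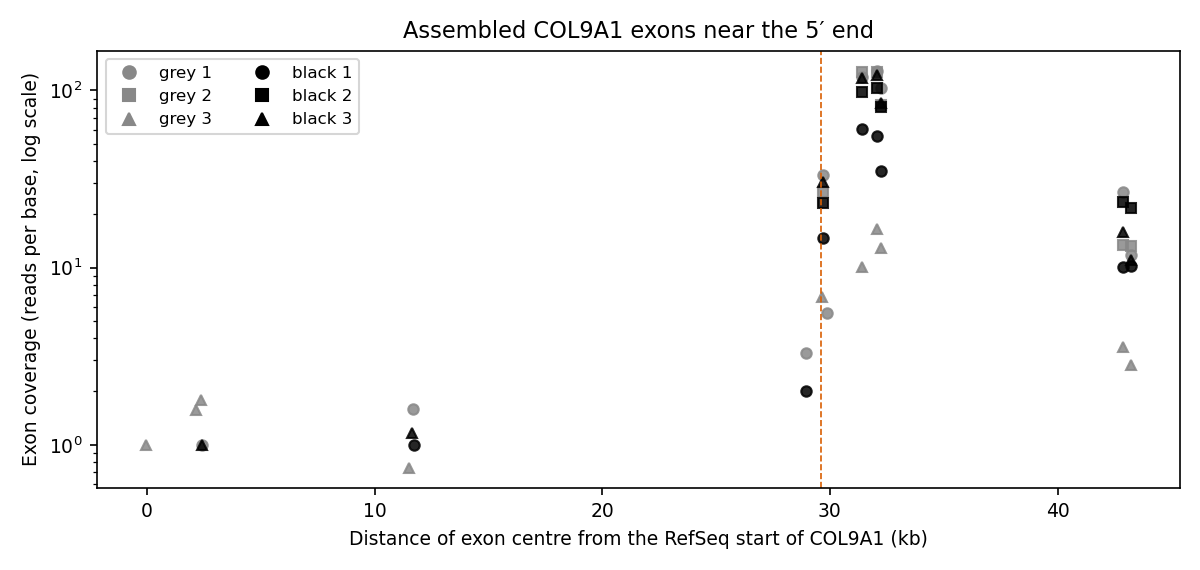
Coverage of assembled COL9A1 exons (reads per base, log scale) against the distance of the exon centre from the RefSeq start in kb, 1 symbol per exon and library, with the internal first exon at the dashed line. Exons near the RefSeq start lie below 2 reads per base where they were assembled at all, and the internal first exon lies at 6.85 to 33.5, with grey 3 lowest there.

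Correlations among the 10 genes over the 6 libraries were computed as a description, between each gene and the mean log2(TPM + 1) of the other 9. They were highest for HAPLN1 (r = 0.94), COL9A2 (0.93), COL11A2 (0.91) and COL11A1 (0.90). They were lowest for ACAN (0.53) and SOX9 (0.55), with COL9A3 at 0.75 and COL2A1 at 0.78. The libraries share their depth and composition across genes, and grey 1 is the highest point of each gene.

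The mean log2 level of the 10 genes was also set against 9493 other genes whose mean reached 5 TPM. Genes without a RefSeq symbol, or with a symbol that begins with LOC, were left out of these. The most like across the 6 libraries were AEBP1, a collagen-binding protein (r = 0.99), CSE1L, MAN2A1, DENND6B, NGFR, a neurotrophin receptor, ZNF444, IL16, ABCD4, ATP1B3 and MSX1 (r = 0.97). AEBP1 was at 56.0, 15.8 and 9.88 TPM in grey 1 to 3 and at 14.5, 19.7 and 20.3 TPM in black 1 to 3, high in grey 1 and lowest in grey 3. The most unlike were DNAH10, PLAGL2, C7H6orf132, TAX1BP1 and RAB38 (r from −0.996 to −0.992), all lowest in grey 1. RAB38, a GTPase, was at 71.0, 136 and 164 TPM in the grey animals and 169, 121 and 125 TPM in the black.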

How the data were processed

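The authors trimmed reads with Trim Galore (0.6.10, Phred score under 20), mapped them with HISAT2 (2.2.1), took out reads of an amplicon that had contaminated the run, and assembled each library on its own with StringTie (2.2.0). The deposited values are coverage, FPKM and TPM per transcript, not counts, and 1 file per animal was given. Aligned bases were taken from the ratio of coverage to FPKM.

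Of 274079 transcripts, 231905 were assigned to a RefSeq gene by exon overlap on the same strand and 1399 by name. Only gene spans were at hand, so exons and strand were inferred from transcripts that matched a span (at least 0.5 of the joint span, or 80% inside). TPM was summed per gene, and a gene with no transcript was listed at 0. Neighbouring or near-identical genes can share transcripts.

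Levels were compared with limma (3.58.1, R 4.3.3, mean-variance trend) on log2(TPM + 1) for genes whose mean reached 1 TPM, adjusted by Benjamini-Hochberg with a threshold of 0.05. This scale understates changes of low genes. Correlations used exact permutation over all pairings (Python 3.11.15, scipy 1.17.1). The script was tested on simulated data. The planned relation with COL3A1, whose symbol was not matched, was not run. Other listed genes whose symbol was not in the RefSeq gene table were likewise not measured.

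The genes, lists and tests were chosen with earlier results of these data known. Named genes were the 10 cartilage genes, the 3 highest of each list, the dermal genes of the relations and the 10 most and 5 least like genes, and others are marked as named after their values were seen. A gene that this rule names is not reported here. Alternatives were other pseudocounts, filters, scalings, transcript sets, a replicate block and leaving out each library. A fixed exon length and the relations of ACAN were added after seeing the data. Labels do not say more of the animals than is given at the start, with 1 punch each, so p-values measure the spread between these samples. Intervals of count sampling were not given, since files hold no counts. Sequences were not used here.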

Additional observations from a re-analysis of the deposited data

How the results depend on the processing

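None of the 10 cartilage genes was called under any alternative run. The number of all genes called was 3, and it was 1 at a minimum mean of 5 TPM, 0 with the replicate block, 0 with reference gene names only, 7 with a fixed exon length and 0 to 3 without each library in turn. Numbers did not pair the animals (correlation of same-numbered deviations −0.05 to 0.02). Names alone gave values for CHAD but not for the other 9 genes.

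Leaving out each library, the difference of black minus grey ranged from −1.29 to 0.55 for COL2A1, −0.83 to 0.56 for COL9A1, −0.59 to 0.25 for COL11A1, −0.54 to 0.36 for COL11A2, −0.47 to 0.51 for HAPLN1, −0.56 to 0.28 for CHAD and −0.28 to 0.91 for COL9A3. The sign of the first 6 turned without grey 1 and that of COL9A3 without grey 3. That of COL2A1, COL9A1, HAPLN1 and CHAD also turned without black 1 (0.08, 0.21, 0.03 and 0.01), COL9A1 without grey 2 (0.07) and HAPLN1 without black 3 (0.02). ACAN (−0.71 to −0.26), SOX9 (−0.89 to −0.11) and COL9A2 (−0.78 to −0.03) stayed negative, nearest to 0 without grey 1. COL9A1 was at 0.16 with a fixed exon length. The cause was not tested. The relation of COL2A1 ranged from 0.57 to 0.96 with COL1A1, from 0.05 (without grey 3) to 0.76 (without black 1) with DCN and from 0.68 to 0.95 with ELN. That of ACAN ranged from −0.96 to 0.0806 with COL1A1 (0.0374 on TPM without log), from −0.54 to 0.68 with DCN and from −0.85 to 0.69 with ELN.

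With 3 animals per colour and 6 punches of unknown cartilage content, the data limit what can be said of colour.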
